A study of Mus musculus with 12 samples.

Results

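CXC chemokines are small secreted or membrane-anchored proteins that attract leukocytes, and 8 of their genes were followed here in mouse macrophages and osteoclasts: Cxcl1, Cxcl2, Cxcl3, Cxcl9, Cxcl10, Cxcl11, Cxcl14 and Cxcl16. They were matched by symbol to the Ensembl identifiers of the deposited expression table, where each symbol had 1 identifier, so that 8 of 54532 genes were taken. The 12 RNA-seq libraries formed 4 groups of 3. All cells were of WT genotype and were grown from femur and tibia marrow with CMG, a source of M-CSF, the growth factor that sustains macrophages. The groups were macrophages without LPS, macrophages with LPS, osteoclasts without LPS and osteoclasts with LPS. Osteoclasts were obtained from the same kind of precursor with RANKL, the cytokine that drives osteoclast formation, given as 100 ng/mL in the source label and as a range in the protocol. On day 5 the treated groups received LPS (lipopolysaccharide, from the outer membrane of bacteria) at 100 ng/mL and stayed in it for 3 h. No age of the mice is given, and the labels do not say whether the libraries of a group came from separate cultures or mice. P-values therefore measure only the spread between these libraries, which may be technical.

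Chemokines of this family act through receptors on leukocytes, and their receptors divide them by function. Cxcl1, Cxcl2 and Cxcl3 bind Cxcr2 and attract neutrophils. Cxcl9, Cxcl10 and Cxcl11 bind Cxcr3 on activated T cells and natural killer cells and are known as interferon-induced genes. Cxcl16 is a transmembrane ligand of Cxcr6 that Adam10 and Adam17 can shed, and Cxcl14 is expressed in many resting tissues. In macrophages, LPS acts through Tlr4, whose Myd88 arm activates NF-kB and whose Ticam1 arm leads to interferon beta and from there to genes with an interferon-stimulated response element (ISRE).

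The 250 bases before the transcription start are shown for the 6 genes of the 8 that RefSeq's promoter table on GRCm38.p6 held, to set the motif letters of the neutrophil-attracting genes beside those of the other members. Each runs 5′ to 3′ on the gene's own strand, and capitals mark matches to 4 motifs searched on both strands: the NF-kB site kappaB, ISRE (GAAANNGAAA), AP-1 (TGANTCA) and the TATA box (TATAAA). The windows are chr5:90890995-90891244 (plus strand) for Cxcl1, chr5:90903649-90903898 (plus) for Cxcl2, chr5:90785851-90786100 (plus) for Cxcl3, chr5:92328080-92328329 (minus) for Cxcl9, chr5:92348890-92349139 (minus) for Cxcl10 and chr13:56296552-56296801 (minus) for Cxcl14.
Cxcl1: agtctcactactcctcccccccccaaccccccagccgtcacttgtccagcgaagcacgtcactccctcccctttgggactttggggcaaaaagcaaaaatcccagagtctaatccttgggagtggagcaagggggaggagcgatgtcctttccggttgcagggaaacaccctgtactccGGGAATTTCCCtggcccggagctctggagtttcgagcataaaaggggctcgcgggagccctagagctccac
Cxcl2: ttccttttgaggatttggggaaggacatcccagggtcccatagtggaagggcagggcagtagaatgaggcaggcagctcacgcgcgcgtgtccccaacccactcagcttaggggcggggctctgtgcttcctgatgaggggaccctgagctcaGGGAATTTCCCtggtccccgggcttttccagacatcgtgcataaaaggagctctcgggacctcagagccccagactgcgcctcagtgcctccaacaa
Cxcl3: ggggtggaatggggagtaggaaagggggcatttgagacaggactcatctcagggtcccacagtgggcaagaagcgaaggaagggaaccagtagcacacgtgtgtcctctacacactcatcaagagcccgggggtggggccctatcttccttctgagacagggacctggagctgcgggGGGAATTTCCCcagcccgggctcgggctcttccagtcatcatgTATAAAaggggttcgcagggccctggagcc
Cxcl9: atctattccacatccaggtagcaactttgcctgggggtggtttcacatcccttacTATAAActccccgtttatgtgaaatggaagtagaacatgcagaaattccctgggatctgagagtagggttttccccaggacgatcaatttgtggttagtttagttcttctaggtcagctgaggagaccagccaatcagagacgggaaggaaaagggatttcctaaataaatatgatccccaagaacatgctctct
Cxcl10: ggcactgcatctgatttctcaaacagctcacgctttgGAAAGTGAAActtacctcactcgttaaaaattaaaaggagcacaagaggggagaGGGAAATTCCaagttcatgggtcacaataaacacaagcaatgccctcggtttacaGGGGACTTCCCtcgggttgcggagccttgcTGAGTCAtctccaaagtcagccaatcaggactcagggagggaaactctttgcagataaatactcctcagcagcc
Cxcl14: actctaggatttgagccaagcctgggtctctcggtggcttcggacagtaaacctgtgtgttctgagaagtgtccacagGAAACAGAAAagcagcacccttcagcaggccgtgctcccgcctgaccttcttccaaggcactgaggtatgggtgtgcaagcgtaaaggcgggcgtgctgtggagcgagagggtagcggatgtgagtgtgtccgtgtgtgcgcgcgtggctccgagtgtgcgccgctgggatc

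The 3 neutrophil-attracting genes held the same kappaB capitals. The match GGGAATTTCC and its overlapping match on the other strand began 71 bases before the start in Cxcl1, 97 in Cxcl2 and 73 in Cxcl3. Cxcl3 also held a TATA box from 30 to 25 bases before the start. Cxcl10 held the most matches: an ISRE (GAAAGTGAAA) from 213 to 204 bases before the start, kappaB matches starting at 159 (GGGAAATTCC), 104 (GGGGACTTCC) and 103 (GGGACTTCCC), of which the last pair overlap, and an AP-1 site (TGAGTCA) from 74 to 68. Cxcl14 held an ISRE (GAAACAGAAA) from 172 to 163 bases before the start and no kappaB letters in the window. Cxcl9 held only a TATA match, from 195 to 190 bases before the start. These positions count from RefSeq's start, which lies 28 bases inside the GENCODE gene for Cxcl2, 4 inside it for Cxcl1 and 2 before it for Cxcl3, and is the same for the other 3 genes. Among 32851 windows of the same length in the table, kappaB was found in 7.25%, ISRE in 2.98%, AP-1 in 6.75% and TATA in 12.4%. A match describes letters and not a bound site, and a window without one says only that these letters are not in it.

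Of the members, 6 lie in a pair of clusters on chromosome 5 (GENCODE M21 on GRCm38). Cxcl3 (ENSMUSG00000029379, 90786103 to 90789600), Cxcl1 (ENSMUSG00000029380, 90891241 to 90893115) and Cxcl2 (ENSMUSG00000058427, 90903871 to 90905938) span 119.8 kb on the plus strand. Cxcl9 (ENSMUSG00000029417, 92321347 to 92328079), Cxcl10 (ENSMUSG00000034855, 92346638 to 92348889) and Cxcl11 (ENSMUSG00000060183, 92359544 to 92365485) span 44.1 kb on the minus strand. Cxcl11 is annotated there as a polymorphic pseudogene, a gene that is intact in some mouse strains and not in others. Cxcl14 (ENSMUSG00000021508) lies on chromosome 13 from 56288643 to 56296551, and Cxcl16 (ENSMUSG00000018920) on chromosome 11 from 70453983 to 70459984, both on the minus strand.

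Values are FPKM, the fragments counted per kilobase of a gene's exons relative to the size of its library, so levels of different genes are compared per length. The libraries held between 15651770 and 20281456 reads by recovery from the FPKM steps. The summed FPKM of 10 osteoclast markers, such as Ctsk and Acp5, was 16.3 to 29.0 in macrophage libraries and 29220 to 32220 in osteoclast libraries. Summed macrophage markers were at 13286 to 15560 FPKM in macrophage libraries and 2720 to 3556 in osteoclast libraries. Markers of red cells summed to at most 0.135 FPKM and those of T and B cells to at most 1.14.

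Without LPS, Cxcl14 and Cxcl16 made up most of the transcripts of the 8 members in both cell types, and osteoclasts held far less of both. Pf4, a CXC ligand outside the 8, was above their sum in untreated macrophages, at a mean of 622 FPKM. The summed FPKM of the 8 genes was 119 ± 0.808 in macrophages and 8.71 ± 1.98 in osteoclasts (SD, n = 3). Cxcl14 made up 64.5% ± 0.304 and Cxcl16 30.0% ± 0.157 of that sum in macrophages. In osteoclasts the shares were 34.5% ± 3.25 for Cxcl14 and 54.5% ± 4.32 for Cxcl16. Cxcl1, Cxcl3, Cxcl9 and Cxcl11 were near the limit of counting in both untreated groups.

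**Figure D1:**
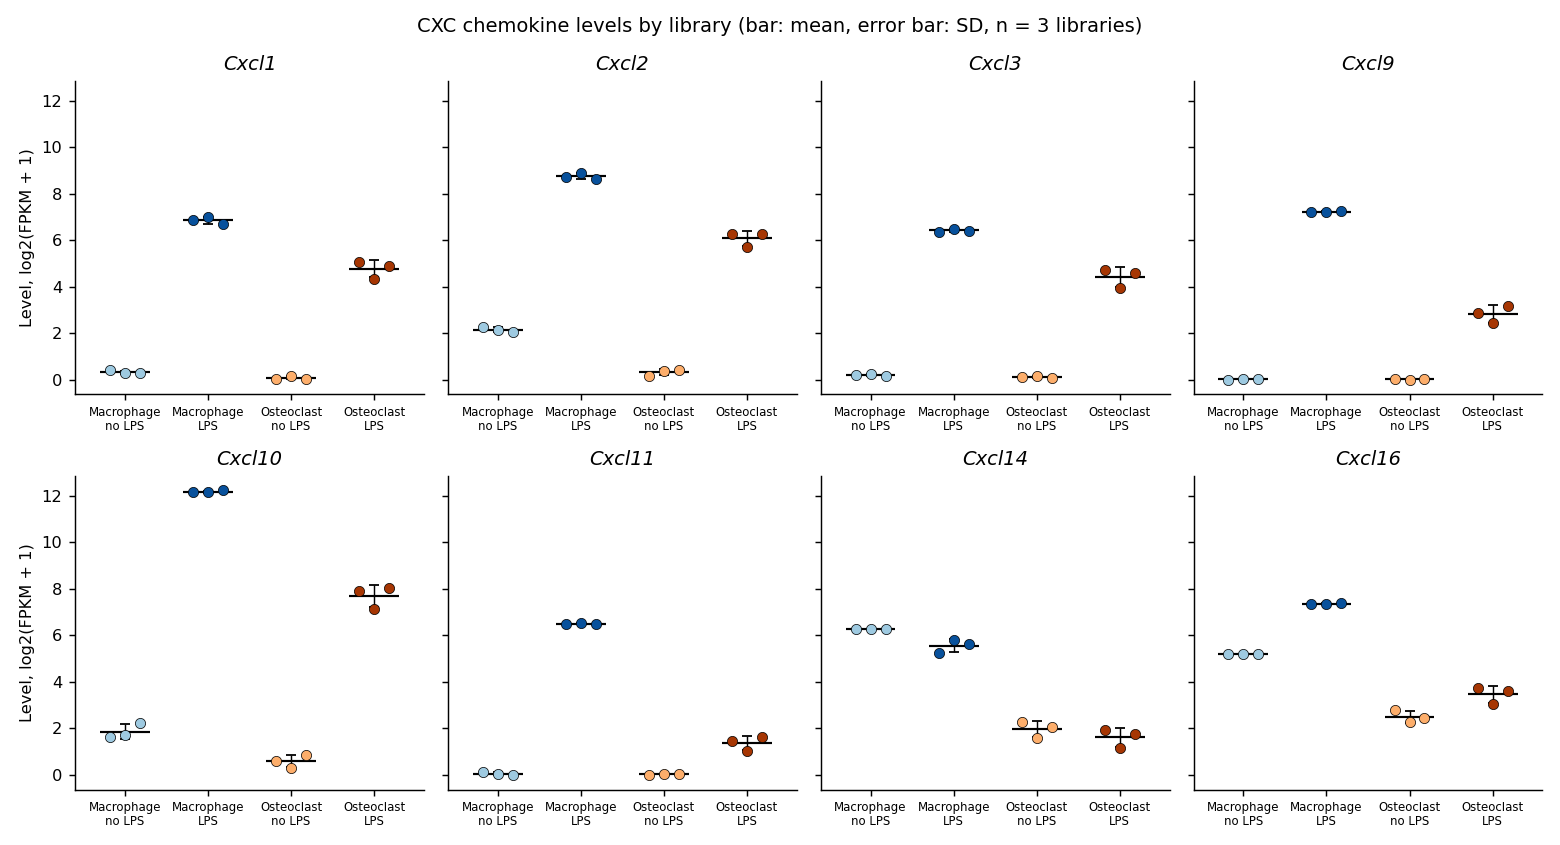
Level of each CXC chemokine gene as log2(FPKM + 1) in every library, by group (points: libraries, bar: mean, error bar: SD, n = 3). Cxcl10 reaches the highest level of the 8 in both LPS-treated groups, and Cxcl14 and Cxcl16 are the 2 genes well above 0 in all 4 groups.

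Cxcl14, the chemokine of resting tissues, was at 77.1, 76.8 and 77.2 FPKM in untreated macrophages and at 3.86, 2.04 and 3.22 FPKM in untreated osteoclasts. The groups did not overlap, and the osteoclast mean was 25.4-fold lower. On the scale of log2(FPKM + 1) the difference was -4.30 (SE 0.21, limma adjusted p = 1.71e-09). The stromal markers, another possible source of RNA in marrow cultures, summed to 27.3 to 38.0 FPKM in untreated macrophages and 0.632 to 0.945 in untreated osteoclasts, with Lepr at 0 in the macrophages and Alpl at 0 in the osteoclasts. Of these 8 markers, 5 passed the filter, all through macrophage libraries, so a count of those lower in osteoclasts is fixed by the filter and is not given. Their part in the Cxcl14 difference was not tested. In these bulk samples, fewer cells of a type and less RNA per cell cannot be told apart.

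Cxcl16, the membrane-anchored ligand, was at 35.8, 35.9 and 36.0 FPKM in untreated macrophages and at 5.94, 3.84 and 4.40 FPKM in untreated osteoclasts. All osteoclast libraries were below all macrophage libraries, and the mean was 7.60-fold lower (log2 difference -2.70, SE 0.16, limma adjusted p = 9.91e-09). Cxcl2 stood at 3.76, 3.39 and 3.11 FPKM in untreated macrophages and at 0.131, 0.286 and 0.341 FPKM in untreated osteoclasts, a 13.5-fold lower mean (log2 difference -1.82, SE 0.14, limma adjusted p = 1.10e-07). Cxcl10 was at 2.09, 2.25 and 3.73 FPKM in untreated macrophages and at 0.529, 0.236 and 0.784 FPKM in untreated osteoclasts. Its mean was 5.20-fold lower in osteoclasts (log2 difference -1.27, SE 0.22, limma adjusted p = 0.000208). Neither gene's groups overlapped.

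The other 4 members were at most at 0.322 FPKM in any untreated library. Cxcl1 was at 0.322, 0.227 and 0.216 FPKM in macrophages (14, 10 and 9 reads) and at 0.0289, 0.126 and 0.0314 FPKM in osteoclasts (1, 4 and 1 reads). Cxcl3 was at 0.136, 0.170 and 0.116 FPKM in macrophages and at 0.0929, 0.101 and 0.0505 FPKM in osteoclasts. For both genes the macrophage libraries lay above the osteoclast libraries, yet neither was called (Cxcl1 -0.24, SE 0.15, limma adjusted p = 0.16, and Cxcl3 -0.08, SE 0.15, limma adjusted p = 0.656). Cxcl9 and Cxcl11 had between 0 and 8 reads per untreated library, and their groups overlapped. For Cxcl1 the ratio of read rates in osteoclasts over macrophages was 0.240 (95% counting interval 0.0820 to 0.579). For Cxcl3 it was 0.581 (0.294 to 1.10), and a difference was not detectable at this depth.

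Without LPS, 4 of the 8 members were therefore called lower in osteoclasts, 0 higher and 4 not called, and 6 had groups that did not overlap. Of all 11335 genes tested, 77.8% were called in this comparison, 39.0% lower and 38.8% higher, and 81.4% had groups that did not overlap. The members' median log2 difference was -0.76, against 0.00 over all genes tested. Cxcl1 was called when values were rescaled to TPM (-0.75), when the pseudocount was 0.1 (-1.17), with only these groups in the fit, and without replicate 2 of the LPS-treated osteoclasts.

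LPS raised 7 of the 8 members in macrophages and lowered Cxcl14. The summed FPKM of the 8 genes went from 119 ± 0.808 to 5729 ± 109 (SD, n = 3), and Cxcl10 alone made up 81.1% ± 1.10 of it after LPS. Of all genes tested, 69.9% were called, 36.8% higher and 33.1% lower, and 74.0% had groups that did not overlap. The members' median log2 difference was 6.49, against 0.02 over all genes tested. Cxcl1, Cxcl3, Cxcl9 and Cxcl11 reached the filter of 1 FPKM in 3 libraries only through LPS-treated libraries, so their direction is partly fixed by the filter.

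Markers of other cell types and of macrophages also moved with LPS in the macrophage libraries. Adgre1 was called higher (1.56-fold) and Cx3cr1 lower (3.77-fold) among the 6 macrophage markers, of which 2 were called higher and 1 lower. Among dendritic markers, Xcr1 went from 0.150 to 5.31 FPKM and passed the filter only through the LPS-treated macrophages, so its direction is partly fixed by the filter. Cdh5 and Kdr, 2 of 2 tested endothelial markers, rose 2.31-fold and 1.43-fold. Neutrophil markers summed to 5.62 to 8.04 FPKM without LPS and 6.88 to 16.4 with, and Ly6g and Elane were at 0 without LPS. Of these markers, 2 of 3 tested were called higher, S100a9 and Ngp, and the groups of both overlapped. Of 5 tested stromal markers, 1 was called lower. The part of these markers in the LPS effects on the members was not tested.

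Among the neutrophil-attracting genes, Cxcl2 was the most abundant. It reached 421, 470 and 401 FPKM with LPS in macrophages, from 3.42 ± 0.326 without, 126-fold higher (log2 difference 6.61, SE 0.14, limma adjusted p = 1.45e-12). Cxcl1 reached 116, 128 and 103 FPKM from a mean of 0.255, 452-fold higher (6.53, SE 0.15, limma adjusted p = 2.97e-12). Cxcl3 reached 81.8, 89.0 and 84.0 FPKM from a mean of 0.140, 604-fold higher (6.23, SE 0.15, limma adjusted p = 4.37e-12). For all 3 genes every treated library was far above every untreated one, and the coefficient of variation with LPS was at most 10.9%.

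The Cxcr3 ligands showed the widest span of levels. Cxcl10 was at 4580, 4564 and 4805 FPKM in LPS-treated macrophages, a mean 1730-fold above that without LPS (10.33, SE 0.22, limma adjusted p = 1.81e-12). Cxcl9 was at 147, 147 and 153 FPKM with LPS and at 0, 0.0282 and 0.0149 FPKM without, which is 18818 reads against 3. The ratio of read rates was 10363, with a 95% counting interval of 3545 to 50256, and the log2 difference on the log2(FPKM + 1) scale was 7.21 (SE 0.14, limma adjusted p = 6.88e-13). Cxcl11 was at 89.5, 90.5 and 88.0 FPKM with LPS and at 0.0910, 0.0112 and 0 FPKM without (14149 reads against 9, of which 8 were in replicate 1). Its ratio of read rates was 2597 (1368 to 5681) and its log2 difference 6.45 (SE 0.11, limma adjusted p = 4.05e-13). These intervals are exact and cover counting error only. The interval of Cxcl9 was wide because its untreated libraries held 3 reads in all.

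Cxcl16 rose less, to 162, 163 and 166 FPKM, 4.56-fold above the untreated mean of 35.9 (2.16, SE 0.16, limma adjusted p = 1.28e-07). Cxcl14 went the other way, from 77.0 ± 0.188 FPKM to 36.9, 54.8 and 48.4, 1.65-fold lower (-0.73, SE 0.21, limma adjusted p = 0.00855). All 3 treated libraries were below all 3 untreated ones, and their coefficient of variation of 19.4% was the highest of the 8 members in this group. After rescaling to TPM the fall of Cxcl14 was -1.38, with the median of all genes at -0.55, and after quantile normalization -1.42, with that median at -0.14. The order in LPS-treated macrophages was Cxcl10, Cxcl2, Cxcl16, Cxcl9, Cxcl1, Cxcl11, Cxcl3 and Cxcl14, and only Cxcl11 and Cxcl3 had overlapping ranges as neighbours.

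In osteoclasts LPS raised the same 7 genes, to much lower levels, and Cxcl14 was not called. The summed FPKM went from 8.71 ± 1.98 to 350 ± 95.8 (SD, n = 3). Of all genes tested, 17.7% were called in osteoclasts, 11.1% higher and 6.59% lower, and 34.0% had groups that did not overlap, against 7 of the 8 members. As in macrophages, the direction of Cxcl1, Cxcl3, Cxcl9 and Cxcl11 is partly fixed by the filter, which they passed only through LPS-treated libraries. The members' median log2 difference was 3.55, against 0.01 over all genes tested.

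Cxcl2 in osteoclasts was at 76.8, 50.5 and 75.7 FPKM with LPS, 268-fold above the untreated mean of 0.253 (5.75, SE 0.14, limma adjusted p = 3.36e-10). Cxcl1 was at 32.8, 19.4 and 28.8 FPKM with LPS (4.69, SE 0.15, limma adjusted p = 1.57e-09). That is 2763 reads against 6, a ratio of read rates of 451 (207 to 1230). Cxcl3 was at 25.2, 14.3 and 23.1 FPKM with LPS, and its ratio of read rates was 261 (158 to 466), with a log2 difference of 4.30 (SE 0.15, limma adjusted p = 3.28e-09). No treated library of these genes came near an untreated one, and replicate 2 was the lowest of the treated libraries each time.

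Cxcl10 was again the most abundant member, at 240, 141 and 260 FPKM in LPS-treated osteoclasts and 414-fold above the untreated mean of 0.517 (7.11, SE 0.22, limma adjusted p = 1.57e-09). Cxcl9 reached 6.40, 4.34 and 8.05 FPKM with LPS (2.81, SE 0.14, limma adjusted p = 4.59e-08), which is 1027 reads against 2 and a ratio of 503 (139 to 4157). Cxcl11 reached only 1.76, 1.06 and 2.09 FPKM (1.36, SE 0.11, limma adjusted p = 5.41e-06), or 339 reads against 3 and a ratio of 111 (37.5 to 539). The groups of these 3 genes did not overlap. Cxcl16 was at 12.4, 7.24 and 11.2 FPKM with LPS, 2.18-fold above the untreated mean of 4.73 (0.97, SE 0.16, limma adjusted p = 0.00123). In the same libraries LPS also raised 1 of 6 macrophage markers, Adgre1 (1.88-fold; 0.85, SE 0.16, limma adjusted p = 0.00258), 1 of 2 tested endothelial markers, Kdr (4.84-fold; 0.75, SE 0.11, limma adjusted p = 0.000575), 1 of 2 tested dendritic markers, Xcr1 (4.31-fold, from 0.0784 to 0.338 FPKM; 0.31, SE 0.07, limma adjusted p = 0.00956), and 0 of 5 tested stromal markers, among which Col1a1 averaged 0.0660 and 0.267 FPKM (0.24, adjusted p = 0.177). The part of these markers in the rise of Cxcl16 and the other members was not tested. Cxcl14 was at 2.79, 1.21 and 2.40 FPKM with LPS and 3.04 ± 0.921 without (-0.38, SE 0.21, limma adjusted p = 0.257), and its groups overlapped. That difference was -0.14 without replicate 2 of the LPS-treated osteoclasts, -0.23 without replicate 1 of the untreated ones and -0.57 without their replicate 2, and was called in none of these.

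**Figure D2:**
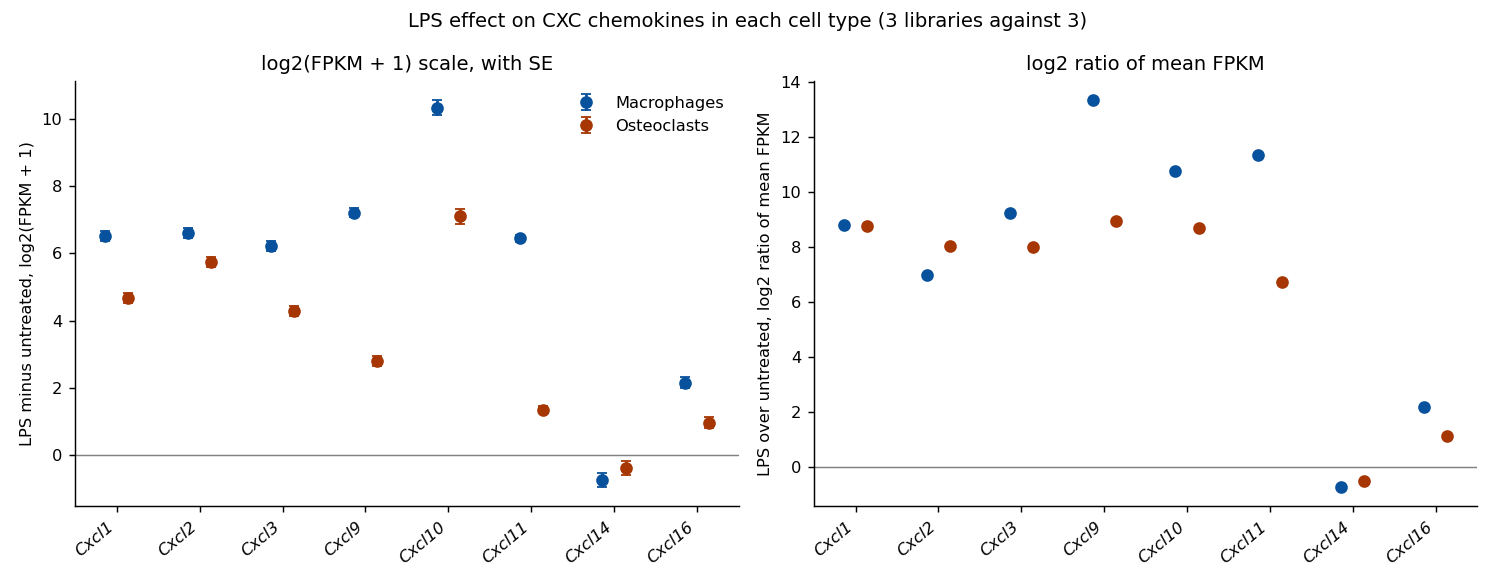
LPS effect on each member in macrophages and osteoclasts, as the log2 difference of log2(FPKM + 1) with its SE (left) and as the log2 ratio of mean FPKM (right), 3 libraries against 3. On the left every member but Cxcl14 lies lower in osteoclasts, while on the right Cxcl1 nearly coincides and Cxcl2 lies higher in osteoclasts.

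With LPS, all 8 members were lower in osteoclasts than in macrophages, with no overlap between libraries. Of all genes tested, 83.9% were called in this comparison, 43.0% lower and 40.9% higher, and 83.6% did not overlap. The members' median log2 difference was -3.92, against -0.02 over all genes tested. The gap was smallest for the neutrophil-attracting genes: 4.07-fold for Cxcl3 (-2.01, SE 0.15, limma adjusted p = 7.15e-08), 4.27-fold for Cxcl1 (-2.08, SE 0.15, limma adjusted p = 4.79e-08) and 6.36-fold for Cxcl2 (-2.67, SE 0.14, limma adjusted p = 2.03e-09). Cxcl16 was 15.9-fold lower (-3.90, SE 0.16, limma adjusted p = 2.30e-10) and Cxcl14 21.9-fold lower (-3.95, SE 0.21, limma adjusted p = 2.80e-09). The Cxcr3 ligands lay 21.8-fold lower for Cxcl10 (-4.49, SE 0.22, limma adjusted p = 1.30e-09), 23.9-fold for Cxcl9 (-4.41, SE 0.14, limma adjusted p = 1.94e-11) and 54.6-fold for Cxcl11 (-5.12, SE 0.11, limma adjusted p = 1.26e-12). All 8 were called lower under each of the 19 alternatives run.

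As a percentage of the LPS-treated macrophage mean, the 3 LPS-treated osteoclast libraries held 29.6, 16.8 and 27.2% for Cxcl3, 28.5, 16.8 and 25.0% for Cxcl1 and 17.8, 11.7 and 17.6% for Cxcl2. They held 5.16, 3.04 and 5.60% for Cxcl10, 4.28, 2.91 and 5.38% for Cxcl9 and 1.97, 1.19 and 2.34% for Cxcl11. Each library of the neutrophil-attracting genes thus lay above every library of the Cxcr3 ligands on this measure. Macrophage markers in the same osteoclast libraries averaged 175% of the macrophage level for Cd68, 69.7% for Csf1r, 11.2% for Lyz2, 9.28% for Adgre1, 0.814% for Mrc1 and 0.679% for Cx3cr1. None of the 6 was at 0 in osteoclasts. Summed markers of 4 other cell types were lower there too with LPS, at 0.924 to 1.55 against 30.0 to 36.4 FPKM for stromal cells, 0.569 to 1.88 against 6.88 to 16.4 for neutrophils (with Ly6g, Mpo and Elane at 0 in osteoclasts), 0.0693 to 0.134 against 0.501 to 0.947 for T and B cells (with Cd3d, Cd3e and Cd79b at 0 in osteoclasts) and 0.773 to 1.55 against 4.93 to 5.09 for endothelium (with Tek at 0 in osteoclasts). The summed dendritic cell markers went the other way, at 8.05 to 9.66 FPKM in osteoclasts and 6.86 to 7.21 in macrophages. Itgax was called higher in osteoclasts (1.93, SE 0.09, limma adjusted p = 1.06e-09). Xcr1, the other tested dendritic marker, was called lower there (-2.24, SE 0.07, limma adjusted p = 2.14e-11), at 0.338 against 5.31 FPKM. Xcr1 passed the filter only through the LPS-treated macrophages, so its direction is partly fixed by the filter. The part of these cell types, and of macrophages remaining in the osteoclast cultures, in the chemokine difference was not tested.

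**Figure D3:**
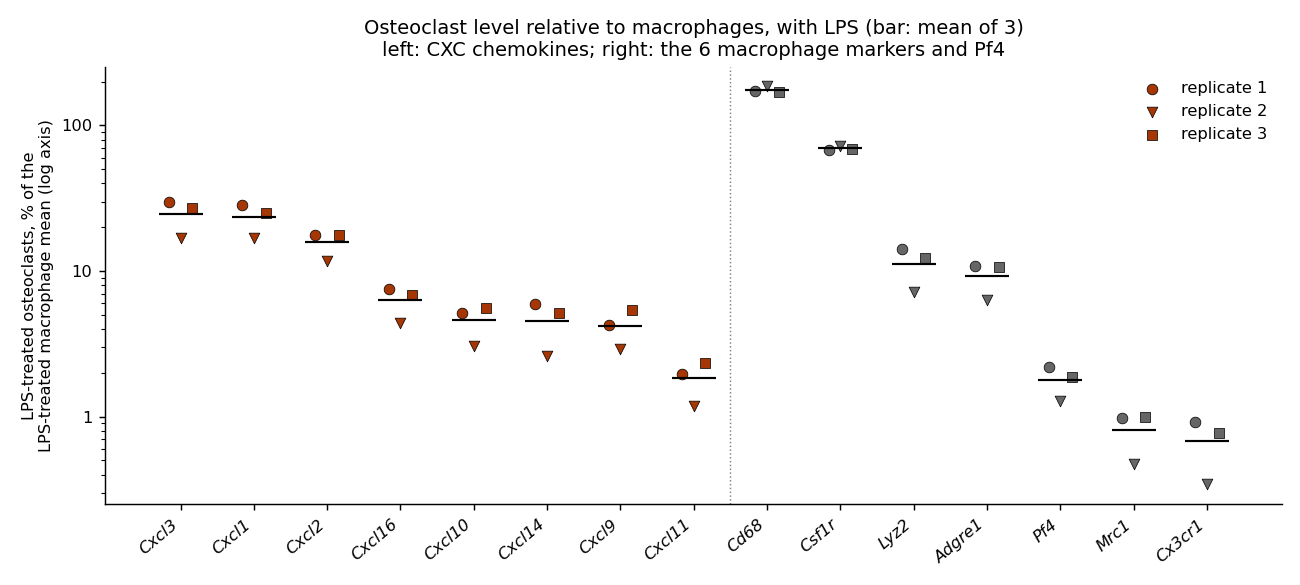
LPS-treated osteoclast libraries as a percentage of the LPS-treated macrophage mean for the 8 CXC chemokines (left) and for the 6 macrophage markers and Pf4 (right), on a log axis, with the mean of 3 as a bar. Cxcl1, Cxcl2 and Cxcl3 average 15.7 to 24.6%, Cxcl9, Cxcl10 and Cxcl11 1.83 to 4.60%, and replicate 2 is the lowest library for all 8 chemokines.

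The difference between the LPS effects depended on the scale for several members. On log2(FPKM + 1), 7 of 8 members had a smaller LPS effect in osteoclasts by the interaction test and Cxcl14 was not called. Over all genes tested 56.6% had a called interaction, 30.0% below 0 and 26.6% above. The members' median interaction was -1.89, against -0.01 over all genes. The interaction was -5.09 for Cxcl11 (SE 0.16, limma adjusted p = 2.66e-10), -4.40 for Cxcl9 (SE 0.19, limma adjusted p = 3.29e-09) and -1.19 for Cxcl16 (SE 0.23, limma adjusted p = 0.000723). As a ratio of ratios of mean FPKM, these 3 were at -4.64, -4.38 and -1.07 on the log2 scale. Limma's voom on recovered reads also called the same 3 genes, at -5.56 (adjusted p = 0.000469), -4.75 (adjusted p = 0.00748) and -1.06 (adjusted p = 9.23e-05). The call for Cxcl16 was lost after quantile normalization (-0.52, adjusted p = 0.0633).

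For Cxcl1, Cxcl2, Cxcl3 and Cxcl10 the call was not kept on every scale. With a pseudocount of 0.1 the calls of Cxcl1 (-0.95, adjusted p = 0.0318), Cxcl3 (-1.65, adjusted p = 0.000287) and Cxcl10 (-2.25, adjusted p = 0.00172) held and that of Cxcl2 was lost (0.68, adjusted p = 0.0876). In voom none of the 4 was called. Cxcl3 was at -1.93 (SE 0.21, limma adjusted p = 8.68e-06) and, as a ratio, at -1.24, with a voom value of -1.31 (adjusted p = 0.358). Cxcl10, whose log2(FPKM + 1) interaction was called, was at -2.06 as a ratio and at -2.04 in voom (adjusted p = 0.0699). Cxcl1 was at -0.06 as a ratio, a value that leans on replicate 2 of the untreated osteoclasts, which held 4 of that group's 6 reads. Cxcl2 was above 0 both as a ratio (1.09) and in voom (1.11, adjusted p = 0.244), although it was called below 0 on log2(FPKM + 1). After rescaling to TPM, Cxcl2 was called above 0. Cxcl14 was at 0.35 (SE 0.30, limma adjusted p = 0.342) and was called above 0 after rescaling to TPM (0.85, adjusted p = 0.0439) and quantile normalization (1.01, adjusted p = 0.00873). Rescaling to TPM also moved the median interaction of all genes tested above 0, which bears on its values for Cxcl2 and Cxcl14. The untreated osteoclast libraries held 1 to 12 reads each for Cxcl1, Cxcl2 and Cxcl3, which limits the precision of these ratios.

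The make-up of the transcripts of the 8 members also differed between the LPS-treated cell types. Cxcl10 took 81.1% ± 1.10 of the summed FPKM in macrophages and 60.8% ± 2.15 in osteoclasts (SD, n = 3). Cxcl2 took 7.52% ± 0.692 in macrophages and 19.6% ± 1.38 in osteoclasts. Cxcl1 took 2.01% and 7.78%, and Cxcl3 1.48% and 5.97%. Shares of one sum are not independent, so ratios within a library were also taken. The ratio of Cxcl10 to Cxcl2 was 10.9 ± 1.14 in LPS-treated macrophages and 3.12 ± 0.321 in LPS-treated osteoclasts. By contrast, the ratio of Cxcl1 to Cxcl3 was 1.36 ± 0.117 and 1.30 ± 0.0555, and that of Cxcl10 to Cxcl9 was 31.1 ± 0.191 and 34.1 ± 2.93. The ratio of Cxcl9 to Cxcl11 was 1.67 ± 0.0618 in macrophages and 3.86 ± 0.230 in osteoclasts, so Cxcl11 was the lower of the Cxcr3 ligands by a wider margin in osteoclasts. These ratios were not tested.

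**Figure D4:**
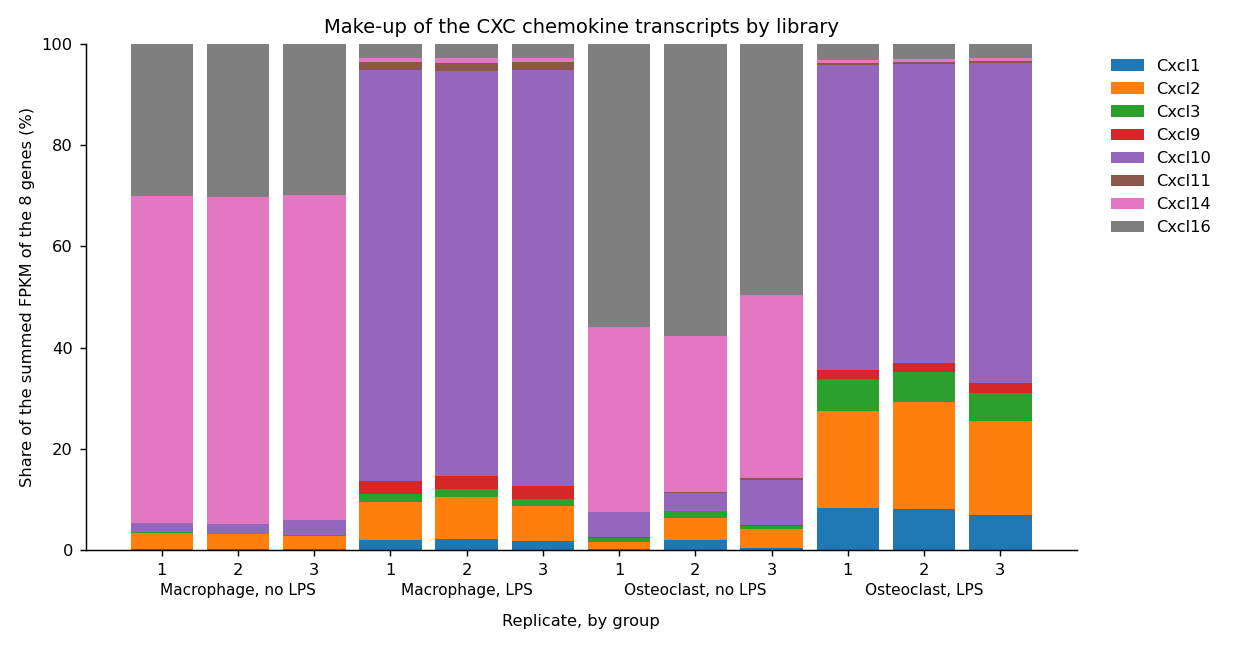
Share of each member in the summed FPKM of the 8 CXC chemokine genes, in percent, for every library by group. Cxcl14 and Cxcl16 fill most of the untreated bars, Cxcl10 fills 81.1% of the LPS-treated macrophage bars and 60.8% of the LPS-treated osteoclast bars on average, and the part of Cxcl1, Cxcl2 and Cxcl3 is larger in the latter.

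Replicate 2 of the LPS-treated osteoclasts was the lowest of its group for 8 of 8 members, at 56.6 to 74.6% of the group mean (median 69.0%). Macrophage markers were lowest in that library for 4 of 6 (median 66.1% of the group mean), osteoclast markers for 3 of 10 (median 105%) and NF-kB genes for 4 of 10 (median 99.3%). Of the 1261 genes that LPS raised in osteoclasts, 53.5% were lowest there, against 31.1% of the other 10074. Among LPS-treated macrophages, replicate 2 was likewise lowest for 49.9% of these 1261 genes, against 32.6% of the others. Without replicate 2 of the LPS-treated osteoclasts the LPS effects in osteoclasts were 4.90 for Cxcl1, 5.95 for Cxcl2, 4.54 for Cxcl3, 3.01 for Cxcl9, 7.39 for Cxcl10, 1.52 for Cxcl11 and 1.18 for Cxcl16, and these 7 were still called. The part of the marker levels in the spread between the LPS-treated osteoclast libraries was not tested.

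The other 7 mouse CXC ligands were mostly low, and 3 of them could be tested. Pf4, the platelet chemokine Cxcl4, was above every member in untreated macrophages, at 622 ± 49.8 FPKM without LPS and 881 ± 38.0 with (0.50, SE 0.15, limma adjusted p = 0.00936). In osteoclasts Pf4 was at 9.11 ± 1.03 FPKM without LPS and 15.7 ± 4.12 with (0.69, SE 0.15, limma adjusted p = 0.00652). Ppbp, the other platelet chemokine, was at 5.86 ± 0.463 FPKM in macrophages without LPS and 4.16 ± 1.36 with (SD, n = 3; -0.44, SE 0.15, limma adjusted p = 0.0174), and these groups overlapped. In osteoclasts Ppbp had 2 reads without LPS and 6 with, its LPS effect was not called (0.10), and its interaction was called above 0 (0.54, SE 0.21, limma adjusted p = 0.0431). Cxcl13, which attracts B cells, was at its highest in osteoclasts. It was at 0 in untreated macrophages and at most 0.124 FPKM in LPS-treated ones, and at 0.439 ± 0.297 FPKM in untreated and 1.33 ± 0.212 in LPS-treated osteoclasts (SD, n = 3). Cxcl13 passed the filter only through the LPS-treated osteoclast libraries, so its direction is partly fixed by the filter. It was called higher with LPS in osteoclasts (0.71, SE 0.13, limma adjusted p = 0.00236) and higher there than in macrophages with LPS (1.16, SE 0.13, limma adjusted p = 3.42e-06). Cxcl5, a Cxcr2 ligand next to Cxcl1 to Cxcl3, had 0 reads in both untreated groups, 39 in LPS-treated macrophages and 12 in LPS-treated osteoclasts, and was not tested. Against a floor of 3 reads over the group, Cxcl5 was at least 21.5-fold higher with LPS in macrophages and at least 3.92-fold higher in osteoclasts.

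Receptors for the members were scarce in these cells. Of 8 receptor genes, only Cxcr4, the receptor of Cxcl12, passed the filter. It fell from 31.8 ± 1.11 to 1.26 ± 0.270 FPKM in macrophages (-3.86, SE 0.14, limma adjusted p = 1.65e-10) and from 3.96 ± 0.518 to 1.10 ± 0.436 FPKM in osteoclasts (-1.26, SE 0.14, limma adjusted p = 5.48e-05; SD, n = 3). Cxcr2, the receptor of Cxcl1 to Cxcl3, averaged at most 0.0506 FPKM in any group. Cxcr3, the receptor of Cxcl9 to Cxcl11, averaged 0.834 and 1.09 FPKM in macrophages without and with LPS and 0.110 and 0.139 in osteoclasts. Of the proteases that shed Cxcl16, Adam17 rose in macrophages from 39.2 to 89.4 FPKM (1.17, SE 0.07, limma adjusted p = 3.12e-08) and in osteoclasts from 12.2 to 15.8 (0.35, SE 0.07, limma adjusted p = 0.00666). Adam10 fell in macrophages from 76.2 to 55.5 FPKM (-0.45, SE 0.06, limma adjusted p = 1.76e-05) and was at 28.4 and 26.4 in osteoclasts, where it was not called.

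The NF-kB genes rose with LPS in both cell types, by less in osteoclasts, while the other lists of the routes from LPS to these chemokines were mixed. Of 10 NF-kB subunits and inhibitors, 10 rose in macrophages (median log2 difference 3.37) and 10 in osteoclasts (median 0.85), and 10 had a called interaction below 0. Over all genes tested, 36.8% rose in macrophages, 11.1% rose in osteoclasts, and the interaction was called below 0 for 30.0%. The counts of the other lists are to be read against the same shares. Nfkbiz, a nuclear IkB protein, went from 3.73 to 266 FPKM in macrophages (5.82, SE 0.14, limma adjusted p = 3.80e-12) and from 0.324 to 14.7 FPKM in osteoclasts (3.54, SE 0.14, limma adjusted p = 7.32e-09). Tnfaip3, the inhibitor A20, went from 6.27 to 502 FPKM in macrophages and from 19.6 to 44.3 in osteoclasts. Of 11 genes of interferon beta, interferon receptors and their factors, which include the interferon gamma receptor genes Ifngr1 and Ifngr2, 10 rose in macrophages (median 1.71) and 6 in osteoclasts (median 0.14), and 9 had a called interaction below 0. Ifnb1, which encodes interferon beta, had 0 reads in both untreated groups and 60.2 ± 10.7 FPKM in LPS-treated macrophages, at least 1046-fold higher by the same floor. In LPS-treated osteoclasts Ifnb1 was at 0.784 ± 0.217 FPKM (31 reads), at least 10.1-fold higher. Ifnb1 passed the filter only through the LPS-treated macrophage libraries. Its rise in macrophages and its interaction, both counted above, are therefore partly fixed by the filter.

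Irf9, a subunit of the factor that binds ISRE, rose by 1.71 in macrophages and 1.54 in osteoclasts, and its interaction was not called (-0.17, SE 0.10, limma adjusted p = 0.172). Of 9 tested genes of the LPS receptor and its adapters, 5 rose and 2 fell in macrophages, and 2 rose and 1 fell in osteoclasts. Of all genes tested, 33.1% fell in macrophages and 6.59% in osteoclasts. Tlr4 was at 14.4 FPKM in untreated macrophages and 4.38 in untreated osteoclasts (-1.52, SE 0.09, limma adjusted p = 6.89e-09), and its co-receptor Cd14 at 109 and 16.2 FPKM. In this comparison Myd88, Ticam2 and Irak4 were also called lower in osteoclasts, and Tirap was not called. Called higher in osteoclasts were Ly96 (4.57 and 9.15 FPKM), Ticam1 (5.10 and 13.8) and Traf6 (5.90 and 14.4). Of 5 regulators of mRNA stability, 3 rose and 2 fell in macrophages, and 3 rose and 1 fell in osteoclasts. Zfp36, which encodes tristetraprolin, a protein that promotes decay of cytokine mRNAs, went from 21.6 to 320 FPKM in macrophages and from 21.8 to 34.5 in osteoclasts.

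**Figure D5:**
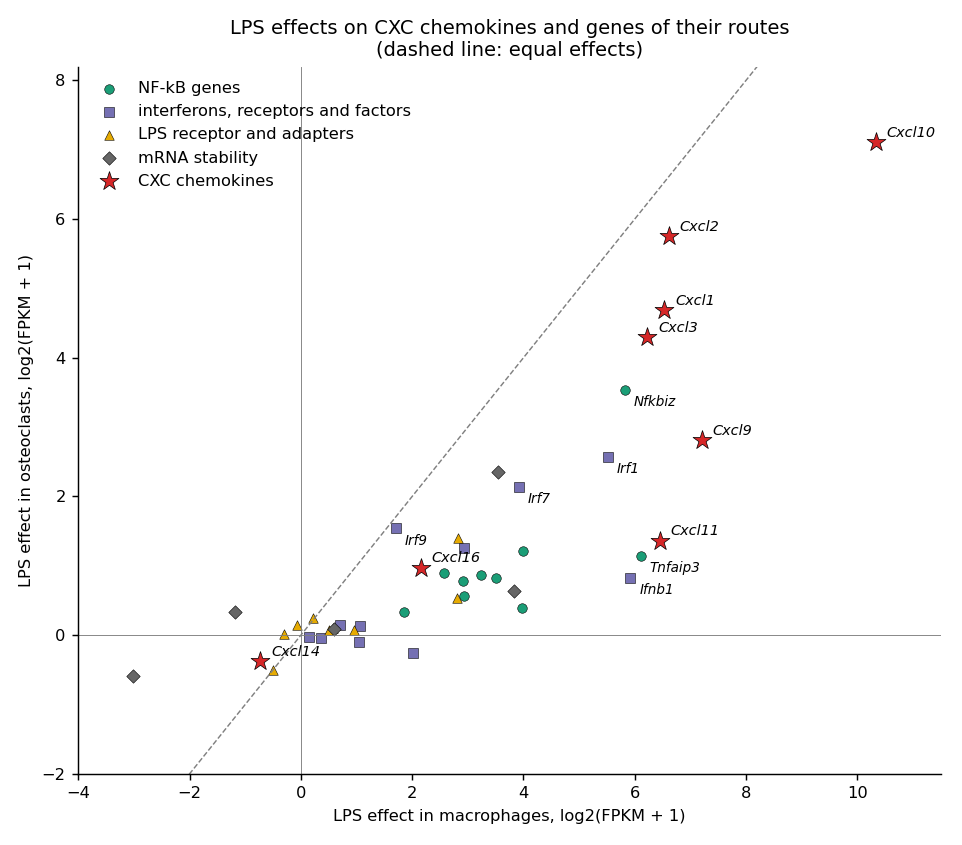
LPS effect in macrophages (horizontal) against that in osteoclasts (vertical), both as differences of log2(FPKM + 1), for the 8 CXC chemokines and the tested genes of 4 lists, with equal effects on the dashed line. Cxcl10 lies farthest out on both axes, and on this scale Ifnb1, Tnfaip3 and Cxcl11 share a large effect in macrophages with a small one in osteoclasts. By ratio of mean FPKM the osteoclast effect was 105-fold for Cxcl11 and 2.26-fold for Tnfaip3. Ifnb1 was at least 10.1-fold higher there against the floor of 3 reads.

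By profile over the 4 group means, the genes most like each member were found by the smallest root mean square difference after centring. Cxcl1 and Cxcl3 were each other's nearest gene, at 0.18 on the log2 scale, followed for both by Clec4e and Nos2. The nearest to Cxcl9 were Il6 (0.12), Calhm6 and Socs1, to Cxcl10 Rsad2 (0.36), Ifit1 and Acod1, and to Cxcl11 Ifnb1 (0.26), Ifit1bl1 and Trim30c. Cxcl2 had Isg15 (0.45), Cd40 and Ifit3 as its nearest genes. Those of Cxcl14 were Fads1 (0.11), Nrp1 and Tgfbi, and those of Cxcl16 were Fam129a (0.12), Sp100 and Sp110. These likenesses describe 4 points per gene.

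Within 100 kb of Cxcl1 to Cxcl3, 6 of 14 genes were tested and 4 rose in each cell type, the members and Pf4. Around Cxcl9 to Cxcl11, 7 of 14 genes were tested, 6 rose in macrophages and 4 in osteoclasts. These counts include the members, and over all genes tested 36.8% rose in macrophages and 11.1% in osteoclasts. The neighbours that rose were Naaa, Sdad1 and Nup54 in macrophages, at 1.36, 0.99 and 1.70, and Nup54 in osteoclasts, at 0.46. Exons of Cxcl10, Cxcl11 and Cxcl16 overlap genes on the opposite strand. No source says whether reads were counted by strand, so how reads in the shared bases were assigned or left out is not known. Cxcl16 shares 552 bases, 18.3% of its length, with Zmynd15, which averaged 1.44 and 5.55 FPKM in macrophages without and with LPS. Cxcl10 shares 133 bases with Art3, at 0.459 FPKM in LPS-treated macrophages, and Cxcl11 shares 1582 bases with the pseudogene Gm2673, listed at 0 in all groups.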

How the data were processed

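Per the labels, total RNA was made into libraries with the NEBNext Ultra kit. The submitters' processing notes name fastp, STAR, featureCounts, DESeq2 and the build mm10, with no versions or roles. The authors deposited FPKM values for 54532 genes in 12 libraries. Dividing each gene's values by the value of a single read gave whole reads, to within 0.02 of a read. For 24997 genes (96.7% of the 25854 above 0) that value followed from GENCODE M21 exon lengths, and the rest were given the shortest whole length that made all libraries whole, a permissive rule for low genes. The denominators matched median-of-ratios size factors times the geometric mean of read totals, so changes are relative to the typical gene. This is inferred and stated in no label. Recovered totals were 15651770 to 20281456 reads.

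A gene was tested where 3 or more libraries reached 1 FPKM (11335 genes, all 8 members among them). Linear models of log2(FPKM + 1) with 4 group means over all 12 libraries were fitted with limma 3.58.1 (R 4.3.3) and its variance trend. Tests were two-sided, with Benjamini-Hochberg adjustment over all genes tested and a threshold of 0.05. Log2 differences on this scale understate changes of low genes, so ratios of mean FPKM are given too. Ratios of read rates carry exact 95% intervals (scipy 1.17.1) that cover counting error only.

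Named genes were the 8 members, genes of fixed lists and the 3 genes nearest to each member by profile. Neighbouring and exon-sharing genes were named after their values were seen. Some genes of the lists are not reported here and were left out of their lists. The members and lists were chosen with earlier results of these data known. The lists hold markers of macrophages, osteoclasts, stromal cells, neutrophils, T and B cells, dendritic cells, endothelium and red cells, and genes of the chemokine routes. Summed FPKM was 0.247 to 16.4 for neutrophil, 1.27 to 9.66 for dendritic and 0.172 to 5.09 for endothelial markers. The 19 alternatives were each library left out in turn, a block for the replicate number, a fit of the compared groups alone, voom on recovered reads, TPM rescaling, quantile normalization, a pseudocount of 0.1 and no filter. The fit was tested on simulated data. Figures were drawn with matplotlib 3.10.9.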

Additional observations from a re-analysis of the deposited data

Results flagged for a closer look

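The LPS effects of 7 members differed between osteoclasts and macrophages by limma's interaction test on log2(FPKM + 1), with 3 libraries per group. The effect in osteoclasts minus that in macrophages was -1.84 for Cxcl1, -0.85 for Cxcl2, -1.93 for Cxcl3, -4.40 for Cxcl9, -3.21 for Cxcl10, -5.09 for Cxcl11 and -1.19 for Cxcl16 (limma adjusted p from 2.66e-10 to 0.00268). Of all 11335 genes tested, 56.6% had a called interaction, 30.0% below 0. All 7 genes rose with LPS in both cell types, and the direction of Cxcl1, Cxcl3, Cxcl9 and Cxcl11 is partly fixed by the filter. As a log2 ratio of ratios of mean FPKM, the difference was -0.06 for Cxcl1 and 1.09, the opposite direction, for Cxcl2. Voom on recovered reads called 3 of them, Cxcl9, Cxcl11 and Cxcl16.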

How the results depend on the processing

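The 5 counts of called members were kept within 1.5 times under every alternative except the interaction in voom, where 3 members were called in place of 7. After rescaling to TPM 8 interactions were called, 2 above 0 and 6 below, and after quantile normalization 7, of which 1 was above 0. TPM moved the median of all genes to -0.55 for LPS in macrophages and 0.51 for the interaction. The interaction of Cxcl2 reversed with a pseudocount of 0.1 (0.68), with TPM (0.52, called, against that median of 0.51) and in voom (1.11). The untreated cell-type difference, near 0 in reads, reversed for Cxcl9 after quantile normalization (0.01), in voom (0.16) and without replicate 2 of either untreated group (leave-one-out range -0.01 to 0.01), and for Cxcl11 after quantile normalization (0.01) and without replicate 1 of the untreated macrophages (leave-one-out range -0.05 to 0.01). The causes were not tested. Leaving out each library gave 8 called members for LPS in macrophages, 7 in osteoclasts, 4 to 5 without LPS between cell types, 8 with LPS and 7 interactions. With the replicate number as a block, the counts were 8, 7, 4, 8 and 7. Deviations of same-numbered libraries (18 pairs, r from -0.07 to 0.10) correlated within the range of other-numbered ones (36 pairs, -0.14 to 0.11), and the numbers were not taken as pairs. Yet 7 of 12 libraries correlated best with their own number, although other numbers offered more partners, so pairing is not settled. Depth limits all values of Cxcl1, Cxcl3, Cxcl9 and Cxcl11 without LPS.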
